A study of Mus musculus with 4 samples.

Results

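The regions described here are stretches of intergenic chromatin that carried H3K27ac in both libraries of isolated mouse liver sinusoidal endothelial cells (LSECs). Peaks of the libraries C2 and C3 were pooled, peaks that overlapped by at least 1 bp were merged, and a merged region with a peak of each library was called shared. A shared region was kept when its midpoint lay outside every protein-coding gene body, more than 2.5 kb and at most 100 kb from the nearest end of a protein-coding gene, and more than 1 kb from any end of an lncRNA gene. This left 4226 of 24199 shared regions, or 17.5% (95% Wilson interval, 16.99% to 17.95%). They held 4512 of the 26975 peaks of C2 and 4239 of the 64498 peaks of C3.

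Both libraries came from LSECs of mouse liver, fixed with 1% formaldehyde for 10 minutes and precipitated with an antibody against H3K27ac, and each has an input library that was not analysed here. The sample records give neither the strain, genotype, age, nor treatment of the mice, and nothing says that C2 and C3 came from separate animals. In the paper's methods, LSECs are taken from perfused liver with magnetic beads against CD146, an endothelial surface protein, and put in culture on collagen, and whether the cells used here were cultured before fixation is not stated. The same methods describe a tagmentation-based protocol (TAF–ChIP-Seq), whereas the sample records describe sonication and a ligation kit.

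Acetylation of lysine 27 of histone H3 marks nucleosomes at active promoters and active enhancers. Enhancers are stretches of DNA that bind transcription factors and raise transcription of a gene that can lie far away, so H3K27ac outside genes and away from their ends is commonly read as a map of candidate enhancers. LSECs are the fenestrated endothelium of the liver sinusoid, known for scavenger receptors, for growth factors that act on neighbouring hepatocytes, and for transcription factors of the ETS, GATA, SOX, and MAF families. The nearest gene is used below only as a position, since peak lists do not show which gene a region acts on.

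The sequence of most of these regions was not read here, but RefSeq sequences of GRCm38.p6 lie inside some of them. Members can therefore be shown where they hold windows around the starts of noncoding transcripts, from 250 bases before to 50 after the start. Of 22 such windows that touched a member, 10 lay wholly inside one. The 3 shown were chosen after their values were seen, for the strongest signal (*Gm40314*) and for the neighbouring genes *Jun* and *Podxl*. Each is a start inside a longer lncRNA gene, away from its ends. Capitals mark the letters of any of 16 short motifs, searched on both strands, that were found.
Gm40314, chr5:67248323-67248622, minus strand: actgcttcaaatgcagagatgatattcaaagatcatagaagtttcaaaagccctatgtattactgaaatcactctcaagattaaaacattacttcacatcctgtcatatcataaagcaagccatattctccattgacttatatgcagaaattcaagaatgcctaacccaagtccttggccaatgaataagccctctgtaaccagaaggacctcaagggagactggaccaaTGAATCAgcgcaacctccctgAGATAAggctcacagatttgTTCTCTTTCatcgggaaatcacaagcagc
Junos, chr4:95094563-95094862, plus strand: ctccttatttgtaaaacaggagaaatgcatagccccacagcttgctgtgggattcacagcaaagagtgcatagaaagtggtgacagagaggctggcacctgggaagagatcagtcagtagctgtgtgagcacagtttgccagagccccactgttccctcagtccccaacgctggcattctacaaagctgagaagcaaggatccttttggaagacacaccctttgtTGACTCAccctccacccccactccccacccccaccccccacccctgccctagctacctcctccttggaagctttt
Gm31486, chr6:31618952-31619251, plus strand: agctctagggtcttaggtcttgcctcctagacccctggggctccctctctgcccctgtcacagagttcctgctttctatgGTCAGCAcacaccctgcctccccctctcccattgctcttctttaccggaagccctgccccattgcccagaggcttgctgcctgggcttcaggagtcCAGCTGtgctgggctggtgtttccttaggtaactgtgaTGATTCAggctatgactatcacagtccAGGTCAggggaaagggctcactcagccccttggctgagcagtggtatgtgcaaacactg

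Each of these 3 windows held the letters of the AP-1 motif (TGANTCA, which reads the same way on both strands apart from its middle base), as did 6 of the 22 windows that touched a member and 9.31% of 11588 lncRNA start windows of the same length. The 22 windows include overlapping starts of 1 gene and windows only partly inside a member. The *Gm40314* window also held AGATAA, the core bound by GATA factors (in 14.0% of lncRNA windows), and the letters of the interferon-stimulated response element (GAAANNGAA, in 9.32%), the latter on the opposite strand. The *Gm31486* window also held the letters of the MAF core (TGCTGAC, in 5.35%, on the opposite strand), an E-box (CAGCTG, in 17.7%), and the nuclear receptor core (AGGTCA, in 19.1%). The marked letters of these windows do not overlap each other. A match describes the letters only. The region around the *Gm40314* start, 12.4 kb from *Tmem33*, had a fold enrichment of 26.9 in C2 and 75.7 in C3. The region at the *Junos* start, 42.8 kb from *Jun*, had 15.3 and 25.8, and the region at the *Gm31486* start, 55.3 kb from *Podxl*, had 10.8 and 29.3.

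Members touched 7 microRNA genes in 6 regions, and the ones shown are let-7i and the pair miR-212 and miR-132, which lie in a single region. Capitals mark the seed, bases 2 to 8, which pairs with target messages.
mmu-let-7i-5p, chr10:122985698-122985719, minus strand: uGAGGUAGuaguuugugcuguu
mmu-miR-212-3p, chr11:75173443-75173464, plus strand: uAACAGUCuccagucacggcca
mmu-miR-132-3p, chr11:75173723-75173744, plus strand: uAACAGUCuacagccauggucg

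The 3p forms of miR-212 and miR-132 share the seed AACAGUC, whereas let-7i-5p has the seed GAGGUAG of the let-7 family. The region that holds let-7i, chr10:122985225-122987047, lay 5.92 kb from *Mon2* and had a fold enrichment of 14.2 in C2 and 33.0 in C3. The region that holds both miR-212 and miR-132, chr11:75172176-75173856, lay 2.76 kb from *Hic1* and had 12.2 and 25.6. Each of these regions is broader than the typical member, at 1823 bp and 1681 bp against a median width of 575 bp.

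Fold enrichment, the height of a peak over background as the authors' peak caller gave it, was taken for each region as the highest value among its peaks in a library. In C2 the members ranged from 3.40 to 72.0, with a median of 8.81 and quartiles of 6.78 and 13.6. In C3 they ranged from 2.43 to 162, with a median of 21.5 and quartiles of 13.9 and 34.8. The C3 median rests on the need for a C2 peak as well, since all 13800 intergenic regions of C3 alone had a median of 8.47. C3 had the higher value in 96.8% of members, beside 97.1% of all shared regions, and the median log2 ratio of C3 to C2 was 1.18. The higher values of C3 thus ran through all shared regions. Across members the 2 libraries ranked regions alike (Spearman's rho 0.774 over 4226 regions, which share each library's depth and peak caller). Many values of both libraries fall on a grid, which is coarser in C2. With a tolerance of 0.01 of a step, 52.1% of members in C2 were whole multiples of 0.678, and 42.2% in C3 were whole multiples of 0.326. Small differences between weak regions therefore carry little information, above all in C2. With 1 condition and 2 libraries no test between groups was possible, and values are given for each library.

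**Figure D1:**
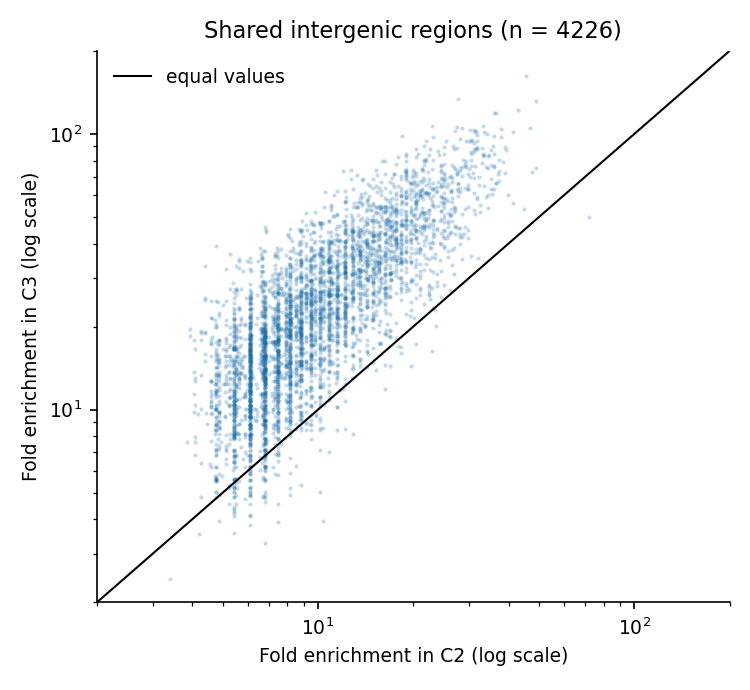
Fold enrichment of each of the 4226 shared intergenic regions in C2 (x axis, log scale) and in C3 (y axis, log scale), with a line where both are equal. Nearly all points lie above the line, 137 do not, and the vertical bands at low values are the grid of C2.

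Intergenic regions were weaker than regions at gene ends and close to regions inside genes. The 10184 shared regions within 2.5 kb of a gene end had medians of 13.8 in C2 and 39.7 in C3, and the 8285 in gene bodies had medians of 8.81 and 21.2. The 937 regions farther than 100 kb from any gene had medians of 8.81 in C2 and 19.1 in C3. Regions at gene ends were also broader, with a median of 916 bp against 575 bp for the members and 583 bp in gene bodies. The strongest class was counted as the regions in the top 10% of both libraries (at least 25.8 in C2 and 72.9 in C3). It held 77 members, or 1.82% (Wilson interval, 1.460% to 2.271%), against a background of 6.93% of all shared regions, 13.9% of those at gene ends, and 1.76% of those in gene bodies.

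**Figure D2:**
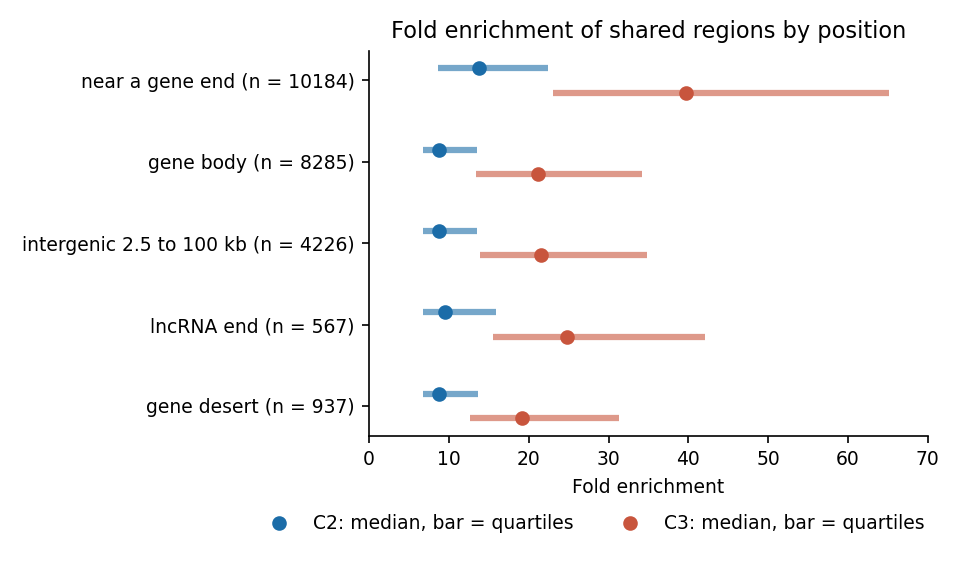
Median fold enrichment (point) and quartiles (bar) of shared regions by position, for C2 and C3. The intergenic and gene body rows nearly coincide in both libraries, and the row for gene ends reaches higher, with a median of 39.7 in C3.

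Whether an intergenic region of C3 was also found in C2 followed its strength in C3. Of 13787 intergenic regions with a C3 peak, 30.7% also held a C2 peak. Below a C3 fold enrichment of 5 the share was 1.54% of 2267 regions, and between 5 and 10 it was 7.84% of 5890. Between 10 and 20 it was 45.1% of 3243, between 20 and 40 it was 92.5% of 1591, and from 40 upward all 796 regions had a C2 peak. The members are therefore mostly the stronger part of what C3 alone would give, and weak regions of C3 cannot be placed by the shorter list of C2. Only 54 intergenic regions had a C2 peak alone.

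Members were denser close to genes. Their distance to the nearest protein-coding gene end had a median of 18.2 kb and quartiles of 7.99 and 39.0 kb, whereas the 773 Mb of DNA that met the same position rules had a median distance of 27.1 kb. Per Mb of that DNA there were 8.92 members between 2.5 and 5 kb, 7.56 between 5 and 10 kb, 6.15 between 10 and 20 kb, 5.00 between 20 and 50 kb, and 3.52 between 50 and 100 kb. Strength did not follow distance in the same way. The median fold enrichment in C3 was 21.3 in the nearest of these bins and 20.7 in the farthest, and in C2 it was 8.54 and 9.15.

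Members were also denser beside genes that carried H3K27ac at an end of their own. The nearest gene had a shared region within 1 kb of one of its ends for 66.9% of members (Wilson interval, 65.4% to 68.3%), but for 33.7% of the DNA that met the position rules. This made 10.8 members per Mb beside such genes and 2.73 per Mb beside the others. The difference was there at every distance, from 16.5 against 4.69 members per Mb between 2.5 and 5 kb to 7.05 against 1.82 between 50 and 100 kb.

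**Figure D3:**
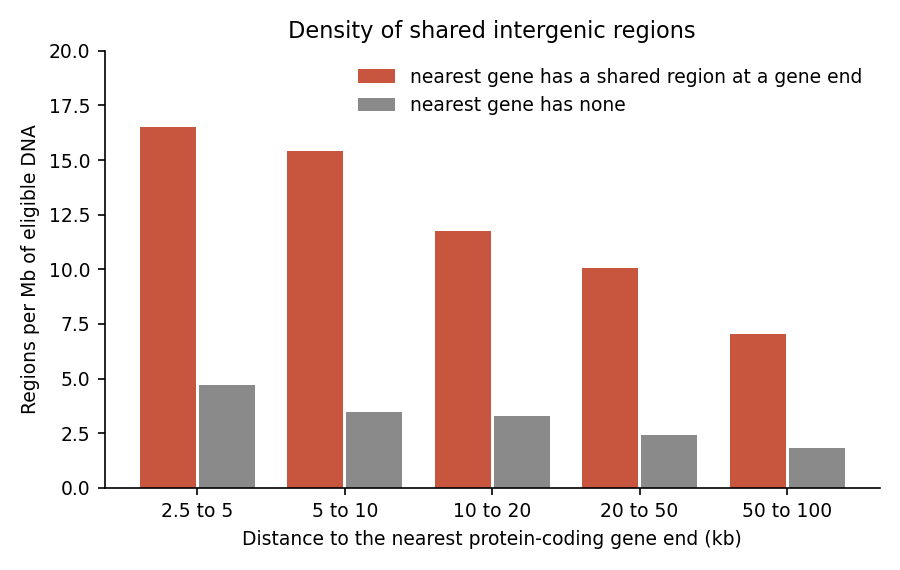
Shared intergenic regions per Mb of eligible DNA (y axis) by distance to the nearest protein-coding gene end (x axis, kb), split by whether that gene has a shared region within 1 kb of an end. Both series fall with distance, and the bars for genes with such a region are higher in each bin, at 16.5 against 4.69 in the first.

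The members had 2537 different nearest genes, which is 11.6% of the 21887 protein-coding genes in the annotation. Only 18065 genes had DNA nearest to them that met the position rules, and the 2537 are 14.0% of those. Of the 2537 genes, 63.7% (Wilson interval, 61.8% to 65.5%) had a shared region at an end. This compares with 44.1% of all protein-coding genes and 40.7% of the 18065. Most of the 2537 had a single member (1629 genes), 908 had 2 or more, and 96 had 5 or more. Those 96 genes accounted for 569 members, or 13.5%.

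By count, the genes with most members included some regulators of endothelial cells, beside genes of other kinds. *S1pr1*, which encodes a receptor for sphingosine-1-phosphate that maintains the endothelial barrier, and *Cemip2*, which encodes a cell surface protein linked to hyaluronan turnover, had 12 each. *Chd7*, a chromatin remodeller, *Hs1bp3*, and *Bach1*, a haem-sensitive transcription factor, had 9 each. *Plpp3*, a lipid phosphate phosphatase, the AP-1 subunit *Jun*, *Cstad*, the transcription factor *Foxo1*, and *Cd47*, the "do not eat me" signal, had 8 each. The transcription factors *Ets1* and *Klf6* also had 8 and came after these by summed width. Of the first 10, *Cstad* and *Cd47* had no shared region within 1 kb of an end, and the other 8 had one. For *Cd47* this depends on where the end is placed. Its 2 RefSeq start windows lay 4325 and 4332 bp from its annotated end, inside a shared region with 18.9 in C2 and 47.5 in C3. These 10 genes had from 73.9 kb (*Hs1bp3*) to 177.5 kb (*S1pr1*) of eligible DNA nearest to them, against a median of 14 kb over all genes. Per 100 kb of it they had from 4.64 (*Foxo1*) to 12.2 (*Hs1bp3*) members. Some genes with fewer members were denser, such as *Ccl2* at 18.3 and *Lrrc74a* at 13.9.

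Around *S1pr1* the members formed groups on both sides of the gene, 8 toward lower and 4 toward higher coordinates, from 14.7 to 67.4 kb away. Their fold enrichment ran from 6.10 to 35.9 in C2 and from 9.77 to 76.1 in C3. The strongest, chr3:115768085-115769659, lay 53.8 kb from the gene and had 35.9 and 76.1, and the next in C3, chr3:115646567-115647743, lay 63.3 kb away on the other side and had 25.6 and 64.1. The member closest to the gene, at 14.7 kb, had 12.8 in C2 and 14.1 in C3. Both of the strongest members at *S1pr1* thus lay more than 50 kb from the gene.

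The 8 members nearest to *Jun* all lay inside *Junos*, an lncRNA gene that extends from the *Jun* end over the neighbouring intergenic DNA, at 10.8 to 89.9 kb from *Jun*. The strongest, chr4:95105253-95106627, had a fold enrichment of 28.1 in C2 and 61.3 in C3. The nearest one had 5.42 in C2 and 4.36 in C3, 1 of the 137 members that were not higher in C3. All 8 members of *Plpp3* lay on 1 side, beyond its 3′ end, and 6 of them fell within 21.1 kb. The strongest, chr4:105259427-105261819, had 48.8 in C2 and 75.2 in C3, and a member 58.9 kb from *Plpp3* had 24.0 and 54.7. The 9 members of *Chd7* lay on 1 side, from 20.01 to 81.3 kb, with values from 8.79 to 35.2 in C2 and from 18.9 to 80.3 in C3. At *Foxo1*, 4 members lay on each side, with values from 5.24 to 18.3 in C2 and from 8.47 to 44.3 in C3. *Foxo1* had as many members as *Jun*, with medians of 7.44 in C2 and 27.4 in C3 against 14.6 and 30.3 for *Jun*.

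**Figure D4:**
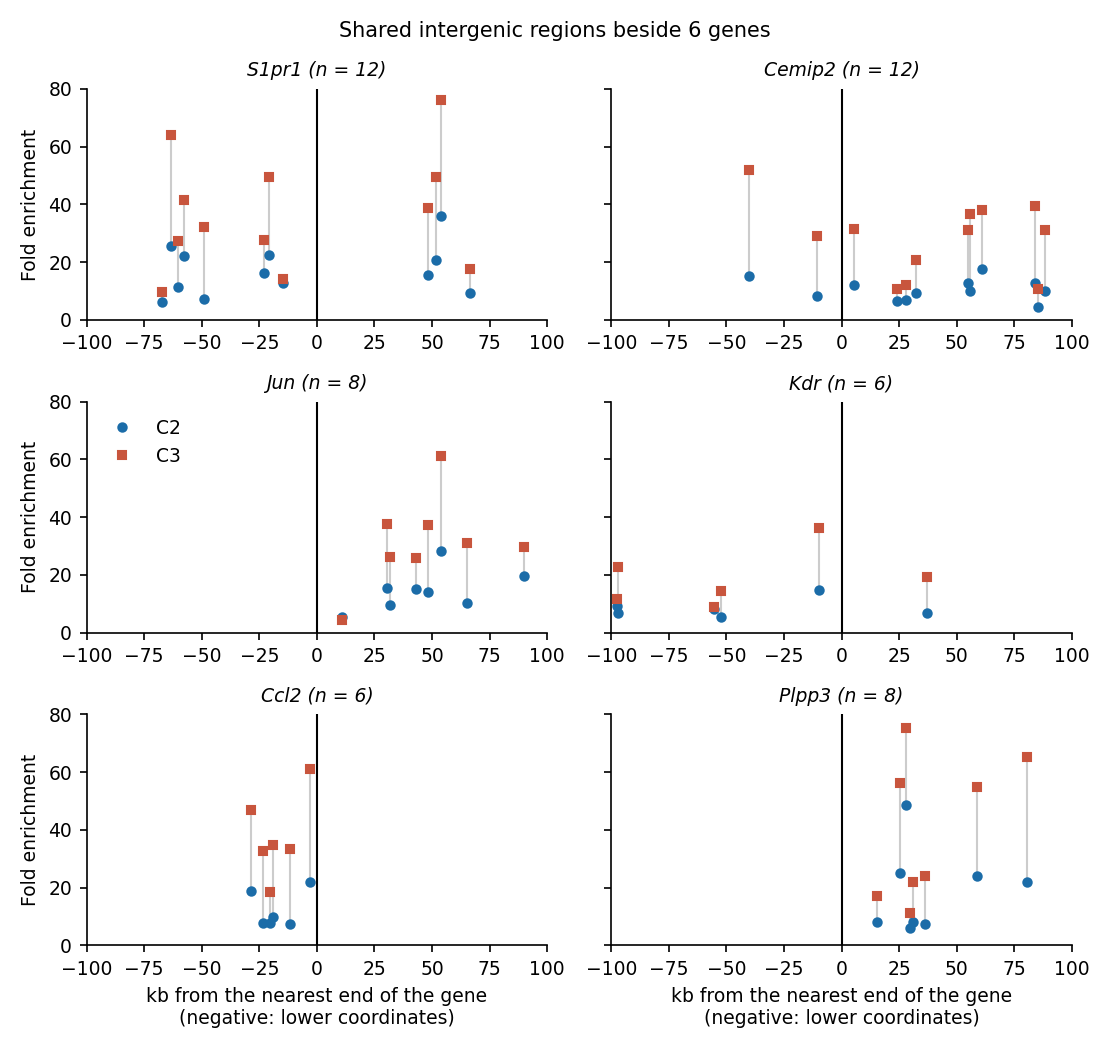
Fold enrichment (y axis) of each shared intergenic region in C2 and C3 against its distance from the nearest end of its gene (x axis, kb, negative toward lower coordinates) for 6 genes, with a grey line joining the 2 values of a region. Members lie on both sides of S1pr1, Cemip2, and Kdr and on 1 side of Jun, Ccl2, and Plpp3.

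Gene lists for LSECs and endothelium were compared with lists for other cell types by how many of their genes were nearest to a member, beside the background of 11.6%. That background includes genes without eligible DNA, and among genes with such DNA it was 14.0%. The lists were chosen with earlier results of these data known, so differences between them are described and were not tested. Among endothelial transcription factors this held for 24 of 36 genes, with 63 members. Among pan-endothelial genes it held for 11 of 20 genes, with 28 members, and among LSEC scavenging and identity genes for 8 of 16, with 17 members. Angiocrine factors and Notch ligands had 8 of 16 genes and basement membrane genes 6 of 13. The NF-κB list had 8 of 18 genes with 30 members, and the list of AP-1 and immediate early genes had 10 of 16 with 34. The other lists lay at or below 14.3%, and with their few genes the Wilson interval of each includes 11.6%. The hepatocyte list had 1 of 15 genes, the cholangiocyte list 1 of 7, and the list of tissues absent from liver 1 of 13, and the lists of hepatic stellate cells (0 of 13), Kupffer cells (0 of 11), and lymphocytes (0 of 8) had none. Genes differ in how much intergenic DNA lies around them. Counted per Mb of the eligible DNA nearest to each list's genes, there were 45.5 members for the LSEC list, 30.5 for the pan-endothelial list, 19.8 for endothelial transcription factors, 14.2 for angiocrine factors and Notch ligands, 15.7 for basement membrane genes, 41.1 for the NF-κB list, and 39.5 for the AP-1 list, against 5.47 over all genes. That value was 10.8 beside genes with a shared region at an end and 2.73 beside the others. The lists differ in this trait, with 15 of 16 AP-1 genes, 10 of 16 angiocrine and Notch genes, and 5 of 13 basement membrane genes having such a region. Densities were not matched for it. There were 4.45 per Mb for cholangiocytes, 3.16 for tissues absent from liver, and 1.66 for hepatocytes. The lists with 0 members had 0.903 Mb (hepatic stellate cells), 0.357 Mb (Kupffer cells), and 0.190 Mb (lymphocytes) of eligible DNA. For Kupffer cells and lymphocytes few members could be counted at the overall density. The hepatic stellate cell list had more room than the hepatocyte list (0.602 Mb) and also had none. However, 0 of its 13 genes had a shared region at an end, and at 2.73 per Mb few members could be counted there.

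**Figure D5:**
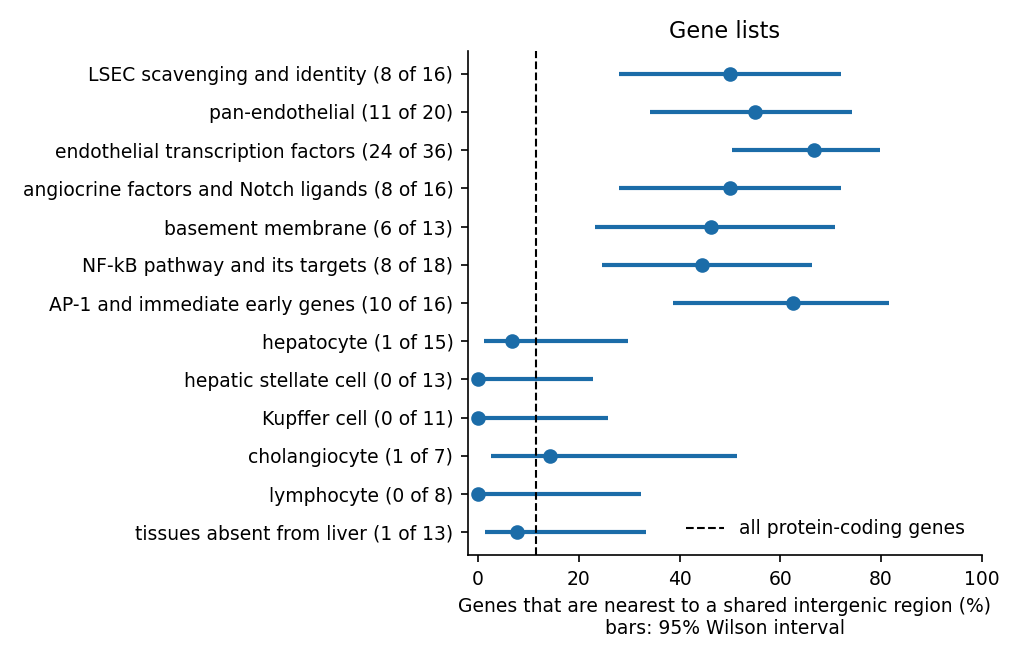
Percent of the genes of each list that are nearest to at least 1 shared intergenic region (point, with 95% Wilson interval for counting error), with the 11.6% of all protein-coding genes as a dashed line. The lists were chosen with earlier results of these data known. The 7 lists of endothelial, angiocrine, basement membrane, NF-κB, and AP-1 genes lie between 44.4% and 66.7%, and the 6 other lists lie at or below 14.3%, with intervals that include 11.6%.

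Within the endothelial lists, signal was uneven. *Kdr*, the main receptor for VEGF, had 6 members, of which the strongest, chr5:75922601-75923203, lay 9.93 kb away and had 14.8 in C2 and 36.3 in C3. *Cd34* had 5, the strongest with 35.2 and 62.8, and *Flt1*, another VEGF receptor, had 4. *Nos3*, the endothelial nitric oxide synthase, had 1 member, chr5:24360598-24361528, at 33.2 in C2 and 84.3 in C3, the strongest of the pan-endothelial list in C3. *Egfl7*, an endothelial secreted protein, had 3, and 1 of them was among the 5 widest members at 4086 bp. Other endothelial genes had none nearest to them, among them *Pecam1*, *Tie1*, *Eng*, and *Robo4*, each of which had a shared region at an end. The eligible DNA nearest to them was 33.1, 20.3, 3.2, and 5.2 kb, which leaves little room for a member at *Eng* and *Robo4*. Among scavenging genes, *Stab2*, a hyaluronan receptor, had 3 members within 17.04 kb and no shared region at an end. The strongest of these had 12.8 in C2 and 41.7 in C3. *Plpp3* accounted for 8 of the 17 members of the LSEC list. *Stab1*, *Lyve1*, *Oit3*, and *Gpr182* had none, and each of the 4 had at most 1.5 kb of eligible DNA around it, so that almost no member could have been assigned to them. *Mrc1* (26.8 kb of eligible DNA) and *Clec4g* (12.8 kb) had neither a member nor a shared region at an end, and *Flt4* (10 kb) had a shared region at an end and no member.

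The transcription factors with most members were *Ets1*, *Foxo1*, and *Klf6* with 8 each. *Erg*, *Gata4*, *Tal1*, *Nr2f2*, *Mef2a*, and *Id3* had 3 each. The strongest member of the list lay 94.3 kb from *Tcf4* and had 33.9 in C2 and 75.5 in C3. The strongest member of *Klf6*, chr13:5837150-5837871, had 17.1 and 54.4. *Prox1*, *Tfec*, and *Epas1* had none, although 183, 174, and 84.9 kb of eligible DNA lay nearest to them. Among angiocrine factors and Notch ligands, *Kitl* had 4 members, *Wnt2* and *Bmp2* 3 each, and *Hgf* and *Dll1* 2 each. Those with none included *Edn1* (149.2 kb of eligible DNA), *Rspo3* (140.3 kb), *Bmp6* (33 kb), *Pdgfb* (27.8 kb), and *Vwf* (22.6 kb). Of these, *Rspo3* and *Vwf* also had no shared region at an end. The highest of this list in C2 was a member 9.93 kb from the Notch ligand *Jag2*, with 25.8 in C2 and 47.4 in C3, and the highest in C3 was a member of *Dll1*, another Notch ligand, with 14.9 and 47.5. The 2 members of *Hgf*, hepatocyte growth factor, lay 81.2 and 83.3 kb away. The nearer had 18.3 in C2 and 29.7 in C3, and the farther had 16.3 and 40.4. Among basement membrane genes, *Nid1* (18.3 in C2 and 53.0 in C3), *Sparc* (12.2 and 44.8), and *Lama5* (8.81 and 24.5) had the strongest members. *Col4a1* had none in 90.3 kb of eligible DNA, and *Col4a2*, its neighbour, had no eligible DNA nearest to it. Neither gene had a shared region at an end. Regions inside gene bodies are not members, so these counts do not show that the locus lacks H3K27ac. The paper proposes putative enhancers of these genes from H3K27ac in isolated LSECs, and their positions were not compared here.

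Several targets of NF-κB had groups of members. The region 57.1 kb from *Tnfaip3*, which encodes the NF-κB inhibitor A20, at chr10:18942985-18944636, had 31.7 in C2 and 101 in C3. *Tnfaip3* had 6 members, all at 57.1 to 79.1 kb. *Ccl2*, a monocyte chemokine, had 6 members within 28.5 kb on 1 side, with values from 7.32 to 22.0 in C2 and from 18.5 to 61.2 in C3. *Nfkbia*, which encodes the inhibitor IκBα, had 4, the strongest at 26.8 and 54.3, and *Cxcl1* and *Vcam1* also had 4 each. *Nfkb1* had 2. *Rel* (40.1 kb of eligible DNA), *Rela* (10.5 kb), and *Nfkb2* (4.7 kb) had none, and *Relb* had no eligible DNA. Targets without a member were *Il6* (102.3 kb), which also had no shared region at an end, *Birc3* (29.6 kb), *Selp* (13.7 kb), and *Icam1* (1.1 kb). *Cxcl10* and *Tnf* had no eligible DNA. Among AP-1 and immediate early genes, *Jun* had 8, *Ier5* and *Myc* 5 each, *Ier3* 4, and *Fos* and *Fosb* 3 each. *Egr2* (83.5 kb of eligible DNA) had neither a member nor a shared region at an end. *Egr1* (20.8 kb), *Egr3* (12.4 kb), *Fosl1* (7.6 kb), *Jund* (5 kb), and *Junb* (2.5 kb) also had no member. The strongest *Fos* member, chr12:85454727-85456125, had 30.6 in C2 and 94.6 in C3, and the strongest *Fosb* member had 31.4 and 76.4. Genes of this list are known to respond rapidly to many kinds of stimulus.

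Defining genes of other cell types were checked at their ends as well. A shared region at an end was found for 2 of 15 hepatocyte genes, 0 of 13 hepatic stellate cell genes, 2 of 11 Kupffer cell genes, 0 of 7 cholangiocyte genes, 1 of 8 lymphocyte genes, and 1 of 13 genes of tissues absent from liver, against 12 of 16 LSEC genes, 15 of 20 pan-endothelial genes, and 44.1% of all protein-coding genes. Those with one were *Trf* and *Ass1* of hepatocytes, *Cd68* and *Spi1* of Kupffer cells, *Cd79a* of lymphocytes, and *Actn3* of muscle, and none of the 6 had a member. *Alb*, *Apob*, *Ttr*, and *Cps1* of hepatocytes, *Pdgfra*, *Lrat*, and *Col1a1* of hepatic stellate cells, *Clec4f*, *Vsig4*, and *Timd4* of Kupffer cells, and *Ptprc* of leukocytes had neither a member nor a shared region at an end, each with at least 30 kb of eligible DNA. *Apoa1* of hepatocytes had no eligible DNA. The genes of these lists with a member were *Hnf4a*, *Epcam*, and *Neurod1*. The member of *Hnf4a* lay 2.52 kb from an end, at 14.5 in C2 and 59.3 in C3. *Epcam* had 2 members more than 85 kb away, 1 at 9.49 in C2 and 10.3 in C3 and 1 at 6.78 and 7.81. *Neurod1* had 1 member at 7.32 and 21.1. *Hnf4a* itself had no shared region at an end.

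The members strongest in both libraries were ranked by the lower of their 2 percentiles among all shared regions. The first, chr13:48545280-48547021, lay 31.7 kb from *Ptpdc1* and had 45.3 in C2 and 162 in C3. The second, chr2:11429290-11430135, lay 41.7 kb from *Pfkfb3*, a regulator of glycolysis, inside the lncRNA gene *Gm31990*, and had 48.8 and 132. The next 8 lay nearest to *Ccnl1*, *Glis2*, *Zfp958*, *Ccne1*, *Klrb1b*, *Osbpl8*, *Slc4a7*, and *Ednrb*, the endothelin B receptor. They had 34.2 to 46.8 in C2 and 98.5 to 122 in C3. Of these 10 members, 4 lay in lncRNA gene bodies. The widest members were a region of 5999 bp and another of 4005 bp near *Ccny*, a region of 4465 bp near *Zswim4*, a region of 4125 bp near *Hmox1*, which encodes haem oxygenase, and the *Egfl7* region already named. Their heights varied. The *Zswim4* region had 29.3 in C2 and 79.7 in C3, and the *Hmox1* region had 6.10 and 17.3, both below the medians.

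Where the libraries differed most, C3 was higher near *Bmf* (4.74 in C2 and 39.1 in C3, log2 ratio 3.04), *Dusp7* (2.92), and *Fth1*, the ferritin heavy chain (2.80). At the other end were regions near *Prag1* (10.4 in C2 and 3.95 in C3, log2 ratio -1.39), *Phf3* (-1.04), and *Pmp2* (-1.02). In the first 3 the C2 value was among the lowest of C2, and in the last 3 the C3 value was among the lowest of C3.

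Many members had another member nearby, but the same share was not counted for other classes of shared region. Merging needed an overlap, so stretches with a short gap between them count as neighbours. The members chr19:21912649-21913656 and chr19:21913733-21914727 near *Cemip2* are such a pair. Another member lay within 10 kb of 1680 members, or 39.8% (Wilson interval, 38.3% to 41.2%). Joined at this distance they made 703 clusters of 2 or more, 177 of 3 or more, and 26 of 5 or more. The 4 clusters of 7 members lay beside *Plpp1* and *Slc38a9*, beside *Hs1bp3*, beside *Fgfr4* and *Nsd1*, and beside *Snx9* and *Zdhhc14*. The *Hs1bp3* cluster, chr12:8371743-8401057, spanned 29.3 kb with values from 5.62 to 25.1 in C2 and from 10.2 to 68.3 in C3. Clusters of 6 included those of *Chd7*, *Plpp3*, *Ccl2*, and *Enc1*. Members with a close neighbour were little stronger than the others, with medians of 9.49 against 8.81 in C2 and 21.9 against 21.2 in C3.

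Of the members, 78.8% touched no annotated gene of any kind, and 751, or 17.8% (Wilson interval, 16.6% to 19.0%), had their midpoint in an lncRNA gene body, against 10.9% of the DNA that met the position rules. The medians of these 751 were 8.81 in C2 and 21.7 in C3, beside 8.81 and 21.4 for the rest. Among short genes, those for transfer RNAs, which RNA polymerase III transcribes, were touched by a member in the largest share. Of 250 tRNA genes in the eligible DNA, 76, or 30.4% (Wilson interval, 25.03% to 36.4%), were touched by a member, against 6 of 187 microRNA genes, 12 of 363 snRNA genes, and 0 of 371 snoRNA genes. The 49 members that touched a tRNA gene ranged from 4.39 to 27.5 in C2, with a median of 10.2, and from 9.63 to 71.6 in C3, with a median of 23.9. They had a median width of 1129 bp, and 18 of them lay on chromosome 13, which holds clusters of tRNA genes among histone genes. The strongest, chr13:21913711-21914930 with *n-TLcaa2*, had 27.5 in C2 and 71.6 in C3. Copies of a tRNA gene are near identical, and how reads that map to several copies were placed is not given in the sources used here, so which copy carries a peak is uncertain.

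At the limits of the rule, the member nearest to a gene lay 2501 bp from *Tmem87b* (5.27 in C2 and 9.63 in C3), and the first region left out as too near lay 2498 bp from *Irf2bp2* (14.9 and 40.1). The farthest member lay 99911 bp from *Mpdz* (10.5 in C2 and 16.7 in C3), and the first region left out as too far lay 100193 bp from *Nr3c1* (5.89 and 14.3). At the lncRNA limit, a member near *Wsb1* at 1001 bp had 12.8 in C2 and 31.1 in C3, and a region near *Gcc2* at 1000 bp was left out with 5.49 and 22.5.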

How the data were processed

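Only the peak lists of the 2 H3K27ac libraries were used. The 2 input libraries were not analysed here. The deposited lists hold peaks that the authors called in each library separately, with the fold enrichment as a ratio over background, the −log10 of the p-value and of the q-value, and a rescaled score. The submitters' processing notes name cutadapt 0.4.4, BWA 0.7.17, Picard 1.67, MACS2 2.0.10, bedtools 2.27.1, and mm10, without their settings. Read depth is unknown for both libraries because reads were not counted in these lists, and a deeper or cleaner library yields more and higher peaks. Wilson intervals (95%) cover counting error only.

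Positions were read as GRCm38, the same assembly, with RefSeq genes and sequences of GRCm38.p6, and are counted from 1. Eligible DNA was counted on a grid of 100 bp by the rules that define members. A shared region within 1 kb of a gene's start or end counted as being at its end. Only the outermost start and end of the annotated gene were used. A transcript start farther inside a gene can therefore hold a shared region that did not count, as at *Cd47*. The p- and q-values entered only the alternatives, and the score was not used. Merging and classing were tested on simulated data. Strand was known for the nearest gene of 76.0% of members, under 80%, so the check of 5′ against 3′ sides is void. GC content and motifs at summits were not run, since no genome was used here.

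The members and the 13 gene lists (LSEC scavenging and identity, pan-endothelial, endothelial transcription factors, angiocrine factors and Notch ligands, basement membrane, NF-κB, AP-1 and immediate early genes, hepatocyte, hepatic stellate cell, Kupffer cell, cholangiocyte, lymphocyte, and tissues absent from liver) were chosen with earlier results of these data known. Named genes were the 10 with most members, the 10 members strongest in both libraries, the 5 widest, those at each limit, the 3 strongest per list, the 3 highest and 3 lowest log2 ratios, and the genes of the lists. Members beside microRNA, tRNA, and noncoding transcript starts were chosen after their values were seen. Alternatives were a stricter q-value, equal numbers of peaks, a 50% overlap, other distances, all annotated genes, the C3 summit, and each library alone. Scripts ran in Python 3.11.15 with pandas 2.3.3 and numpy 2.4.6, with scipy 1.17.1 for intervals and matplotlib 3.10.9 for plots.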

Additional observations from a re-analysis of the deposited data

How the results depend on the processing

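No paired analysis was possible because the 2 H3K27ac libraries form 1 condition and the inputs with the same numbers were not analysed here. Over 10 results, 62 of 100 values under other settings stayed within the interval of the reported value (for counts, within 1.5 times), 38 moved outside it, and 0 changed direction.

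A 50% overlap of both peaks left 2381 members, 19.3% of shared regions, at a median of 19.1 kb, with medians of 10.2 in C2 and 23.5 in C3 and a log2 ratio of 1.14. Under it 24.7% had a neighbour, and 32.1% of nearest genes had a shared region at an end, beside 22.4% of all genes. Equal numbers of strongest peaks gave 16.8% of shared regions, medians of 10.2 and 24.7, a log2 ratio of 1.29, and 36.1% with a neighbour. A q-value of 1e-05 or less gave medians of 9.49 and 23.2 and 37.7% with a neighbour. A gene distance above 5 kb gave 15.1% of shared regions at a median of 22.5 kb, and one of up to 50 kb gave 14.3% at 13.4 kb, with 38.02% having a neighbour. With the bodies and ends of all annotated genes, members made 14.8% of shared regions, lay at a median of 10.6 kb, and had a log2 ratio of 1.15, 36.2% had a neighbour, and 1219 protein-coding genes were nearest to one. A window of 20 kb gave 51.6% with a neighbour, and a window of 2.5 kb at gene ends gave 69.1%. The share of all genes was not recorded for that wider window at gene ends. The C3 summit in place of the midpoint, ranking by −log10 p, the mean over peaks, and the distance from the region's edge (added after the data were seen) moved no value outside its interval.

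With C2 or C3 alone, the number of members ran from 4586 to 13800, their share from 17.001% to 21.4%, their median distance from 16.3 to 18.1 kb, nearest genes from 2584 to 5653, genes with a region at an end from 62.4% to 70.4%, members in the top 10% of that library from 4.30% to 4.45%, and members with a neighbour from 45.9% to 63.6%. In each of these pairs C3 alone gave the higher value, except for distance and the top 10%. The share of all protein-coding genes with a region at an end was 43.4% with C2 alone and 53.9% with C3 alone. By definition, about 10% of all regions of a library lie in its top 10%. The median fold enrichment of C3 members without C2 was 8.47, and that of C2 members without C3 was 8.81.

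GC content and motifs at summits, with their alternatives, were not run for want of a genome here. Read depth is unknown, so the lower number of peaks in C2 limits which weak regions can be called shared, and the cause of the difference between libraries was not tested.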

Other observations

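Chromosomes differed in how densely they held members. The autosomes had between 4.91 (chromosome 5) and 7.58 (chromosome 12) members per Mb of eligible DNA, whereas the X chromosome had 1.30 (81 members in 62.3 Mb) and the Y chromosome had 0 in 39.96 Mb. Other classes of shared region were not counted by chromosome, so these values are not shown to be particular to members. The X and Y chromosomes are part of the 773 Mb of eligible DNA behind the density over all genes. The 9561 intergenic regions with a peak of C3 alone had a median C3 fold enrichment of 6.51, against 21.5 for the members.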
